A study of Mus musculus with 12 samples.

Results

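B16F10 cells incubated with T-cell granules were compared with B16F10 lines grown from relapsed tumors, using 6 of the 12 RNA libraries of the study: Lyso 1, Lyso 2 and Lyso 3 against ITF1, ITM and Rel. B16F10 is a pigmented melanoma line of C57BL/6 mice. Lyso cells were parental B16F10 cells seeded on low-adherence plates coated with poly-lysine and incubated with granules concentrated from the supernatant of splenic CD8+ T cells, which had been activated with anti-CD3, anti-CD28 and high-dose IL-2. The labels call these granules T cell lysosomes and give an incubation of 48 hours, while the study's methods describe a shorter one, so the time is uncertain. ITF1, ITM and Rel are 3 separate lines taken from B16F10 tumors that grew back after immunotherapy in C57BL/6 mice. The cells of these lines were sorted and kept in culture before RNA was extracted. For both groups the labels give a mouse age of 6 weeks, while the study's methods give older mice, so the age is uncertain too. Each of ITF1, ITM and Rel is 1 line, and no granules were added to it. The groups therefore differed in granules, in the plate and in the history of the cells, and these cannot be told apart from the 6 libraries alone. Untreated B16F10 cells (WT) are given beside the results as values, mostly from WT 3, the one deep WT library.

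The members were all libraries of the 2 groups, so that the comparison covers 6 of 12 libraries, and every gene with enough counts was tested. Counts on genes ran from 10895611 to 12675277 in Lyso and from 12749399 to 16402629 in the relapsed lines. In each library, 3 counts, the floor used here, stood for between 0.178 and 0.28 CPM (read counts scaled to the library total with TMM), a limit set by counting error alone. The 3 Lyso libraries were closer to each other than the 3 relapsed lines were: between 6 and 62 genes differed over 2-fold in any Lyso pair, and between 635 and 995 in any pair of relapsed lines. The coefficient of variation between libraries was 0.075 in Lyso and 0.264 in the relapsed lines. No source states that the Lyso libraries came from separate cultures, so p-values measure only the spread between these samples, which may be technical. Melanocyte markers were high in both groups (10 of 10 markers, summed level 29550 to 30330 CPM in Lyso and 22910 to 37000 CPM in the relapsed lines), as the label of the cells requires.

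Activated T cells can release interferon and other cytokines, which act through JAK kinases and STAT transcription factors. Whether the granules used here carried any of these cytokines was not tested. Interferon-gamma acts through GAS elements and induces IRF1, and interferon-alpha and -beta act through the ISRE element, while cytokines that use the gp130 family of receptors activate STAT3. In melanoma cells these pathways are known to raise antigen presentation and checkpoint ligands, and SOCS proteins feed back to shut them down.

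In Lyso, 624 of 14003 genes tested (4.46%) were higher than in the relapsed lines and 262 (1.87%) were lower at an adjusted p under 0.05 (edgeR's quasi-likelihood test, Benjamini-Hochberg). With a log2 fold change over 1 as well, 420 genes (3.0%) were higher and 102 (0.728%) were lower. The rises were large: 214 of the 420 exceeded 4-fold and 73 exceeded 16-fold. The falls were smaller, with 27 of the 102 over 4-fold and 2 over 16-fold, and their median was 1.56 on the log2 scale against 2.05 for the rises. For each gene of both sets the groups did not overlap, which holds for 15.6% (Lyso higher) and 15% (Lyso lower) of all genes tested. The median log2 fold change of all genes tested was -0.016. Without ITM, the counts at the adjusted p alone rose to 1125 and 1015, and without Lyso 1, Lyso 2 or Lyso 3 they dropped to 249, 271 and 268 higher and to 42, 39 and 39 lower.

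**Figure D1:**
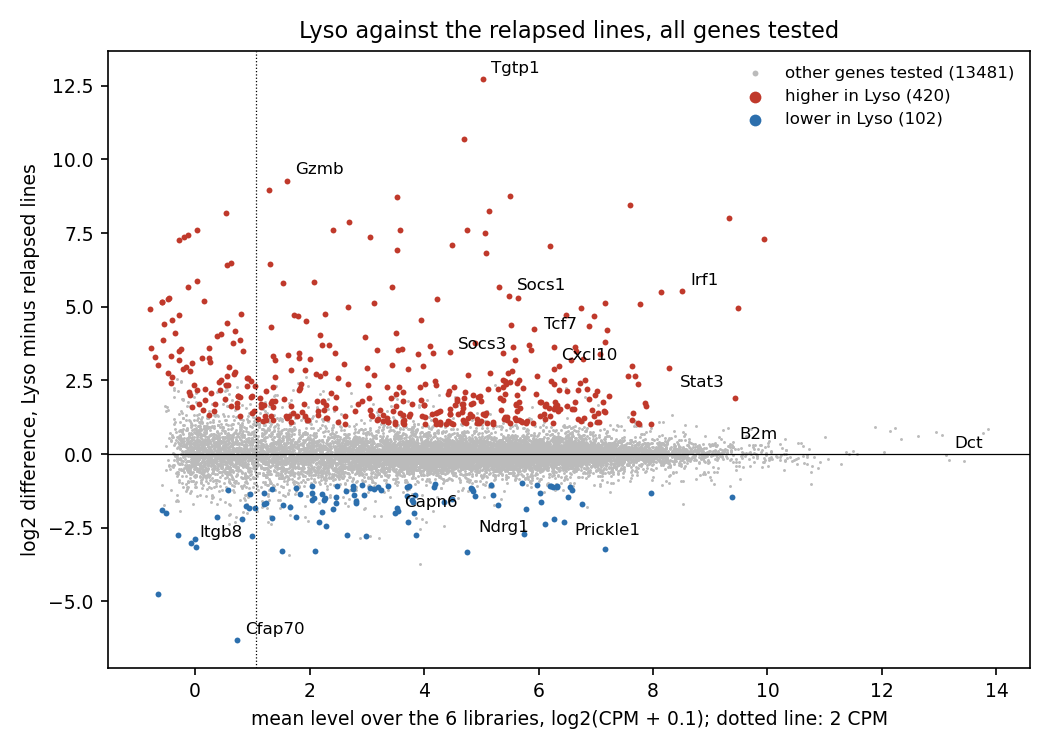
Each point is one of the 14003 genes tested, with its mean level over the 6 libraries as log2(CPM + 0.1) on the horizontal axis and its log2 difference, Lyso minus relapsed lines, on the vertical axis. The 420 genes higher in Lyso (red) reach differences over 10, while the 102 lower genes (blue) lie mostly between -1 and -3, and B2m and Dct sit near 0.

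The level in untreated cells is given from WT 3. It lay at or beyond the nearest relapsed line for 207 of the 420 higher genes, at or beyond the nearest Lyso library for 23, and between the groups for 190. It was nearer to the mean of the relapsed lines for 325 of the 420. Among the 102 lower genes it sided with the relapsed lines for 46, with Lyso for 19, and lay between for 37. Its level was thus nearer to Lyso for 44 of 102 lower genes and for 95 of 420 higher genes. These places are a description of 1 library and were not tested.

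The sequences before the start sites of 5 genes that rose are shown because they hold the GAS element (TTCNNNGAA) or the ISRE core (GAAA, any 2 bases, GAAA), to which STAT and interferon-regulated factors bind. They come from the RefSeq promoters of GRCm38.p6, in gene orientation, the 250 bases before the start site, with matches on either strand in capitals.
Irf1, chr11:53769764-53770013, plus strand: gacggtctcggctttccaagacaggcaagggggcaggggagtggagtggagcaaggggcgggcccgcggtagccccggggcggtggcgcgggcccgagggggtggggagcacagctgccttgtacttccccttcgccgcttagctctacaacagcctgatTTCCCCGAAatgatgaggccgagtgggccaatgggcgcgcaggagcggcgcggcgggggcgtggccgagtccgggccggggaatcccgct
Irf8, chr8:120736108-120736357, plus strand: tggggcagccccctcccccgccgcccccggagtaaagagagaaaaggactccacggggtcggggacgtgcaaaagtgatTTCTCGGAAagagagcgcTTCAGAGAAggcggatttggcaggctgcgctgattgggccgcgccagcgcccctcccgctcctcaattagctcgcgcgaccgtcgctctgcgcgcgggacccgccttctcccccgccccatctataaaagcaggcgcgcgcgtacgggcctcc
Socs1, chr16:10785537-10785786, minus strand: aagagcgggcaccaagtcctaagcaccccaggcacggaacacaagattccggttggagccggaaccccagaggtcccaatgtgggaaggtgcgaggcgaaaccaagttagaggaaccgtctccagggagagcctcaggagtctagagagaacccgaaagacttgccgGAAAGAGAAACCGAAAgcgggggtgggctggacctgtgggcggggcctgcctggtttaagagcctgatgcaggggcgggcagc
Socs3, chr11:117969367-117969616, minus strand: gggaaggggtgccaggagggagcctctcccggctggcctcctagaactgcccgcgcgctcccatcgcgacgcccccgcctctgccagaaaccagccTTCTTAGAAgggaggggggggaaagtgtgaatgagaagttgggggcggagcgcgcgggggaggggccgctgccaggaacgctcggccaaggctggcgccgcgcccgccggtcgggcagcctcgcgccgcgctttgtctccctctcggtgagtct
Cxcl10, chr5:92348890-92349139, minus strand: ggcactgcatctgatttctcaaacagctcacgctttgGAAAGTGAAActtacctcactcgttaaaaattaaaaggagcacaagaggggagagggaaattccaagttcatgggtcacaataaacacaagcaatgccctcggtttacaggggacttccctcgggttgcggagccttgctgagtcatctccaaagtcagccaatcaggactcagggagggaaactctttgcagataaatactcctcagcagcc
Irf1 had 1 GAS match starting 90 bases before its start site, and Irf8 had 2, at 171 and 153 bases, while a further listed promoter of each gene held neither motif. Socs3 had 1 GAS match at 154 bases. Socs1 had 2 overlapping ISRE matches at 83 and 77 bases, and Cxcl10 had 1 ISRE match at 213 bases. In the one Stat3 promoter of the table neither motif was found, which says only that these letters are not in that window. Over all genes with a promoter in the table, 286 of the 420 higher genes, 37 (12.9%) held GAS and 40 (14%) held ISRE, against 7.06% and 3.03% of the 9930 genes tested that have one. Among 64 of the 102 lower genes, 3 (4.69%) held GAS and 5 (7.81%) held ISRE. Of all 32851 promoters, 7.02% held GAS and 2.98% held ISRE. A gene was counted if any of its promoters held the motif, and the mean number of promoters per gene was 1.28 for genes tested, 1.33 for higher and 1.58 for lower genes. A match is a description and not a shown binding site.

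Cytokine signalling genes rose in part. Of 38 members tested of the JAK-STAT list (kinases, STATs, receptors and SOCS inhibitors), 11 rose (28.95%, against 4.46% of all genes), by 0.53 to 5.36 on the log2 scale. None fell, and the median over all 38 was 0.10. In edgeR, 2 of the 38 were lower at an unadjusted p under 0.05, and DESeq2 and limma voom called 0 lower. Stat3, a transcription factor activated by gp130 cytokines (chromosome 11, 100885098 to 100939540 in GRCm38), stood at 548, 549.7 and 547 CPM in Lyso and at 63.2, 61.1 and 95.5 CPM in ITF1, ITM and Rel. The groups were far apart, the 3 Lyso libraries were nearly equal, and WT 3 (61.5 CPM) lay with the relapsed lines. Its log2 fold change was 2.90 (standard error, SE, 0.20, adjusted p = 0.000202, edgeR). Socs3, the inhibitor that STAT3 induces, stood at 103, 109 and 104 CPM in Lyso and at 7.07, 6.45 and 10.5 CPM in the relapsed lines. It rose by 3.72 (SE 0.19, adjusted p = 5.97e-05, edgeR), and WT 3 held 7.83 CPM.
Socs1, the inhibitor that interferon-gamma induces, had the largest rise of the list, from 1.60, 2.07 and 2.65 CPM in the relapsed lines to 83.1, 88.7 and 89.7 CPM in Lyso, a log2 fold change of 5.36 (SE 0.18, adjusted p = 1.04e-05, edgeR). WT 3, at 5.09 CPM, lay between the groups but close to the relapsed lines. Osmr, the oncostatin M receptor that signals to STAT3, stood at 17.6, 16.2 and 16.2 CPM in Lyso against 4.56, 4.20 and 4.57 CPM, a rise of 1.91 (SE 0.15, adjusted p = 0.000505, edgeR). Stat2, which interferon-alpha and -beta activate, was named after its values were seen and rose by 3.24 (SE 0.35, adjusted p = 0.00205, edgeR).

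Of 21 tested genes linked to STAT3 as targets, 10 rose and 0 fell (47.6%, against 4.46% of all genes), and the median was 1.23. DESeq2 and limma voom called 13 higher each, and 0 were lower in any tool or at an unadjusted p under 0.05 in edgeR. Cebpb, a transcription factor of the acute-phase response, rose by 2.29 (SE 0.14, adjusted p = 0.000177, edgeR), from 8.36, 8.05 and 7.01 CPM to 39.5, 34.2 and 40.8 CPM. WT values of Cebpb were uneven, at 100.5 CPM in WT 1 but 10.9 and 13.9 CPM in WT 2 and WT 3, and 20.7% of its exon length overlaps a gene on the other strand. Pim1, a survival kinase, rose by 1.61 (SE 0.16), Tnfrsf1a, a TNF receptor, by 1.62 (SE 0.18) and Nfil3, a transcription factor of the bZIP family, by 1.38 (SE 0.16). Their adjusted p were 0.00130, 0.00237 and 0.00270 (edgeR), and the groups did not overlap for any of the 3.

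**Figure D2:**
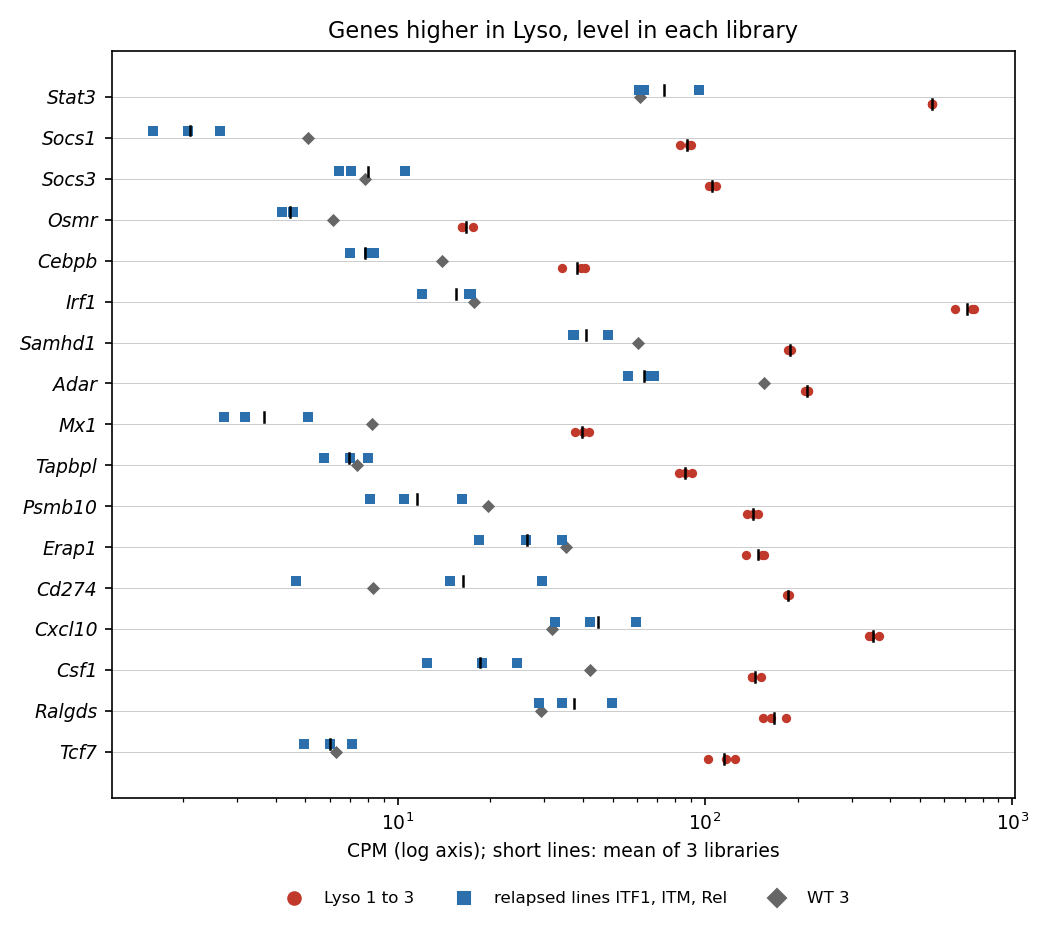
Level of 17 genes that rose, in CPM on a log axis, in Lyso 1 to 3 (red circles), ITF1, ITM and Rel (blue squares) and WT 3 (grey diamonds), with short lines at the means of 3 libraries. Each gene's Lyso libraries lie close together and above all relapsed lines, and WT 3 lies below Lyso for every gene shown.

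Interferon-regulatory factors and the GTPases that guard against intracellular parasites rose most. Of 24 tested members of the list of interferon regulatory factors, guanylate-binding proteins and immunity-related GTPases, 20 rose (83.3%) by 1.57 to 12.74, 0 fell, and the median was 5.52. One was lower at an unadjusted p under 0.05 in edgeR, and DESeq2 and limma voom called the same number higher, 20, and 0 lower. Irf1, the factor that interferon-gamma switches on first (chromosome 11, 53770014 to 53778374), stood at 651, 738 and 750.4 CPM in Lyso and at 17, 12 and 17.3 CPM in the relapsed lines. The difference of 5.53 (SE 0.20, adjusted p = 1.04e-05, edgeR) was far outside the spread of either group, and WT 3 held 17.7 CPM. Irf8, a factor usually tied to myeloid cells, went from 0, 0.355 and 0.397 CPM to 51.2, 54.3 and 53.7 CPM, a rise of 7.60 (SE 0.39, adjusted p = 5.97e-05, edgeR). WT 3, at 0.0585 CPM, lay with the relapsed lines.
Tgtp1, an immunity-related GTPase, had no count in any relapsed line or WT library and 60.5, 68.4 and 65.4 CPM in Lyso, which is at least 976-fold higher at a floor of 3 counts over the relapsed lines (adjusted p = 2.05e-05, edgeR). Its near-identical copy Tgtp2 and the overlapping Gm12185 make the split of these reads uncertain. Gm12185, whose bounds overlap those of Tgtp1, stood at 53.7, 51.3 and 50 CPM in Lyso with 1 count over the relapsed lines, and Olfr56, whose bounds span Tgtp1, at 23.2, 21.5 and 23.5 CPM against at most 0.228 CPM. Gm17334, which lies on the other strand inside the bounds of Irf1, rose by 5.68 (adjusted p = 1.96e-05, edgeR), and reads of these neighbours cannot be told apart without strand. Gbp6, a guanylate-binding protein, rose by 8.24 (SE 0.34, adjusted p = 1.96e-05, edgeR), from at most 0.397 CPM to 57.8, 72.3 and 80.2 CPM, and 29.0% of its exon length overlaps another gene on the same strand. By level the group was led by Gbp2 and Irgm1, named after their values were seen: Gbp2 stood at 1846, 1969 and 2004 CPM in Lyso against 18.2, 3.43 and 15.3 CPM, and Irgm1 at 1340, 1404 and 1439 CPM against 34.0, 16.6 and 82.8 CPM. Their log2 fold changes were 7.31 (SE 0.61, adjusted p = 0.000595, edgeR) and 4.97 (SE 0.56, adjusted p = 0.00249, edgeR). WT 3 held 57 CPM of Gbp2 and 166 CPM of Irgm1, above every relapsed line.

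Of 43 tested antiviral interferon-stimulated genes, 27 rose (62.8%), by 0.69 to 6.83, 0 fell, and the median was 2.50. At an unadjusted p under 0.05 in edgeR 37 were higher and 0 lower, as in limma voom after adjustment, and DESeq2 called 33 higher. Zbp1, a sensor of nucleic acids, rose by 6.83 (SE 0.30, adjusted p = 2.25e-05, edgeR), from 0.608, 0.237 and 0.926 CPM to 70.0, 67.6 and 62.8 CPM. Samhd1, which hydrolyses nucleotides, rose from 37.5, 48.4 and 37.1 CPM to 186, 188 and 190.5 CPM, by 2.20 (SE 0.13, adjusted p = 0.00017, edgeR). Mx1, an antiviral GTPase, rose by 3.45 (SE 0.23) and Adar, an RNA-editing enzyme, by 1.76 (SE 0.12), with adjusted p of 0.000202 and 0.000199 from edgeR. WT 3 lay between the groups for all 4 genes. For Adar it held 156 CPM, nearer to Lyso (211 to 217 CPM) than to the relapsed lines (56.2 to 68.4 CPM).

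Antigen presentation genes rose in most cases. Of 29 tested, 19 rose (65.5%), by 1.38 to 7.61, 0 fell and the median was 2.13. At an unadjusted p under 0.05 in edgeR 2 were lower, and DESeq2 and limma voom each called 1 lower. Tapbpl, which edits peptides on MHC-I, rose from 6.99, 5.74 and 8.01 CPM to 86.2, 90.7 and 82.1 CPM, by 3.64 (SE 0.15, adjusted p = 1.96e-05, edgeR). Psmb10, a subunit of the immunoproteasome, rose by 3.62 (SE 0.24, adjusted p = 0.000199, edgeR), from 8.13, 10.5 and 16.1 CPM to 137, 144 and 149 CPM, and Erap1, which trims peptides, by 2.50 (SE 0.22, adjusted p = 0.000692, edgeR). Ciita, the master regulator of MHC-II genes, went from 0.304, 0.0592 and 0 CPM to 22.9, 23.1 and 25 CPM, a rise of 7.61 (SE 0.47, adjusted p = 0.000175, edgeR). Tap1, the peptide transporter, and Nlrc5, the activator of MHC-I genes, both named after their values were seen, rose by 4.21 (SE 0.37) and 4.73 (SE 0.44), with adjusted p of 0.000745 and 0.000957 from edgeR.
Of the MHC-I chains, the classical heavy chains and the light chain did not pass. H2-K1, a heavy chain (chromosome 17, 33996017 to 34000347), stood at 42.0, 43.7 and 43.6 CPM in Lyso and at 79.1, 11.8 and 134.6 CPM in ITF1, ITM and Rel, so that the Lyso libraries lay inside the range of the relapsed lines. H2-D1 stood at 149.8, 145 and 154 CPM in Lyso and at 168, 76.6 and 288 CPM in the relapsed lines. The light chain gene B2m stood at 781, 691 and 728 CPM against 442, 253 and 1078 CPM. None of the 3 passed: the log2 fold changes were -0.80 (SE 0.66), -0.24 (SE 0.39) and 0.31 (SE 0.45), with adjusted p of 0.523, 0.765 and 0.735 (edgeR). ITM was lowest and Rel highest for all 3, and without ITM H2-K1 passed as lower in Lyso (-1.31, adjusted p = 0.00984, edgeR), while B2m changed sign to -0.05. Over all alternatives but glmTreat, the adjusted p of H2-K1 ran from 0.00984 to 0.966. WT libraries stood at 32.7, 8.81 and 16.8 CPM for H2-K1 and at 336, 232 and 488 CPM for B2m, below each Lyso library for both genes, and at 125, 75.5 and 145 CPM for H2-D1. Other class I heavy chains of the list, named after their values were seen, did rise: H2-T22 by 1.38 (SE 0.25), H2-T23 by 3.01 (SE 0.56) and H2-Q4 by 1.52 (SE 0.35), with adjusted p of 0.0177, 0.0192 and 0.0449 (edgeR). H2-T24 (1.31, SE 0.38) and H2-M3 (-1.96, SE 0.84) did not pass (adjusted p = 0.0912 and 0.216, edgeR). H2-K1 and H2-D1 have long near-identical stretches, so the split of their reads is uncertain.

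Ligands that act on immune cells rose as well. Of 11 tested checkpoint ligands, 4 rose (36.4%, against 4.46% of all genes) and 0 fell (median 0.45), and 1 was lower at an unadjusted p under 0.05 in edgeR. Cd274, which encodes PD-L1, was nearly level in Lyso at 184, 187 and 186 CPM and ran from 4.68 CPM in ITM over 14.8 CPM in ITF1 to 29.4 CPM in Rel. It rose by 3.51 (SE 0.54, adjusted p = 0.00902, edgeR), although the adjusted p was 0.058 without Lyso 1, the highest over all alternatives but glmTreat (lowest 1.64e-10). Tnfrsf14, the ligand of the checkpoint receptor BTLA, rose by 3.20 (SE 0.35, adjusted p = 0.00199, edgeR). Icosl and Cd276 passed with smaller rises of 1.38 and 1.06 (adjusted p = 0.0274 and 0.0316, edgeR), but in only 2 and 3 of the 6 fits that left out a library. Of 14 tested chemokines and cytokines, 6 rose (42.9%) and 0 fell (median 0.47), 3 were lower at an unadjusted p under 0.05 in edgeR, and DESeq2 called 1 lower. Cxcl10, which attracts T cells, rose from 42.3, 59.8 and 32.5 CPM to 347, 343 and 367.5 CPM, by 2.97 (SE 0.22, adjusted p = 0.000329, edgeR). Csf1, the growth factor of macrophages, rose by 2.97 (SE 0.23, adjusted p = 0.000411, edgeR), and Tnfsf10, which encodes the death ligand TRAIL, went from at most 0.265 CPM to 7.0, 9.04 and 8.17 CPM, by 5.83 (SE 0.42, adjusted p = 0.000276, edgeR).

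Cell death genes rose in part. Of 35 tested genes of apoptosis, granzyme inhibition and death receptors, 12 rose (34.3%) by 0.47 to 2.59, 1 fell, and the median was 0.34. Mlkl, the executor of necroptosis, rose from 92.6, 61.3 and 78.7 CPM to 218, 198 and 207 CPM, by 1.42 (SE 0.16, adjusted p = 0.00237, edgeR). Ripk1, a kinase upstream of it, rose by 0.77 (SE 0.10, adjusted p = 0.00515, edgeR), and Casp4, an inflammatory caspase, by 2.59 (SE 0.39, adjusted p = 0.00809, edgeR). Casp1, the other inflammatory caspase named, was the one that fell: it stood at 0.0933, 0.184 and 0.240 CPM in Lyso, at or under 3 counts in each library, and at 1.37, 1.01 and 2.58 CPM in the relapsed lines. Its log2 fold change was low as well (-3.16, SE 0.58, adjusted p = 0.018, edgeR), but the call was lost without any one Lyso library (largest adjusted p 0.107, over the alternatives 0.000246 to 0.107), and WT 3 (0.234 CPM) lay with Lyso. The death receptor Fas had 7, 10 and 9 counts in Lyso and 5, 0 and 8 in the relapsed lines, too few to be tested.

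Immediate-early genes, which ERK signalling switches on within minutes, rose in part. Of 40 tested genes of the immediate-early and ERK feedback list, 10 rose (25%) by 0.89 to 3.51 and 0 fell, with a median of 0.87. At an unadjusted p under 0.05 in edgeR 26 were higher and 1 lower, DESeq2 called 17 higher and 1 lower, and limma voom 20 and 1. Egr2 stood at 3.36, 3.04 and 2.97 CPM in Lyso and at 0.0760, 0.118 and 0.596 CPM in the relapsed lines, a rise of 3.51 (SE 0.55, adjusted p = 0.00996, edgeR), which missed the threshold without Lyso 1 (adjusted p = 0.0638, the highest over all alternatives but glmTreat, with 2.32e-06 the lowest). Egr1, its close relative, stood at 80.9, 53.8 and 55.5 CPM in Lyso and at 7.52, 2.43 and 27.1 CPM in the relapsed lines. These groups did not overlap either, but the log2 fold change of 2.36 (SE 0.69) had an adjusted p of 0.0938 (edgeR), and the relapsed lines spread over 10-fold. Without Rel it was 3.70 (adjusted p = 0.00806, edgeR), without ITM 1.86 (adjusted p = 0.0469, edgeR), and limma voom with a weight for each group gave 3.01 (adjusted p = 0.0138). The adjusted p of Egr1 ran from 3.65e-05 with no filter to 0.304 without Lyso 1. Zfp36, which destabilises cytokine mRNA, rose by 2.38 (SE 0.33, adjusted p = 0.00576, edgeR). Junb and Nr4a2 rose by 1.46 and 1.33 (adjusted p = 0.0114 and 0.00897, edgeR), in 3 of the 6 fits that left out a library each. Mapk3, which encodes ERK1, did not pass (0.15, SE 0.20, adjusted p = 0.709, edgeR): it stood at 165, 135 and 129 CPM in Lyso and at 138, 91.7 and 156.5 CPM in the relapsed lines.

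Of the genes around Ral and Wnt signalling, 2 stood out. Ralgds, an exchange factor that switches on Ral GTPases, rose from 28.8, 34.2 and 49.8 CPM to 184, 164.5 and 155 CPM, by 2.16 (SE 0.20, adjusted p = 0.00112, edgeR). It was the only one of 21 tested genes of its list to rise (4.76%, against 4.46% of all genes). Rasa3, which switches off Ras, fell by 0.72 on the log2 scale (-0.72, SE 0.12, adjusted p = 0.0111, edgeR), a call lost without any one Lyso library. Tcf7, a transcription factor of Wnt signalling that T cells also use, stood at 125, 117 and 103 CPM in Lyso and at 4.94, 7.10 and 6.02 CPM in the relapsed lines. Its rise of 4.25 (SE 0.17, adjusted p = 1.65e-05, edgeR) was the largest of 23 tested genes of the Wnt list. Of these, 4 rose (17.4%, against 4.46% of all genes) and 1 fell (4.35%, against 1.87%), and DESeq2 called 4 and 2. Lef1, Axin2 and Lrp5 passed with rises of 1.72, 0.80 and 0.54, and Lrp6, a Wnt co-receptor, fell (-0.62), each call being lost without any one Lyso library and those of Lef1 and Axin2 also without Rel. WT 3 held 6.31 CPM of Tcf7 and 29.3 CPM of Ralgds, with the relapsed lines in both cases. For Lef1, WT 2 and WT 3 held 4.61 and 4.325 CPM, above each Lyso library (2.05 to 2.86 CPM), while the shallow WT 1 had none. Lef1 was thus not higher in Lyso than in WT 3. WT 3 held 22.2 CPM of Axin2 and 51.55 CPM of Lrp5, inside the range of the relapsed lines, and 139 CPM of Lrp6, between the groups.

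**Figure D3:**
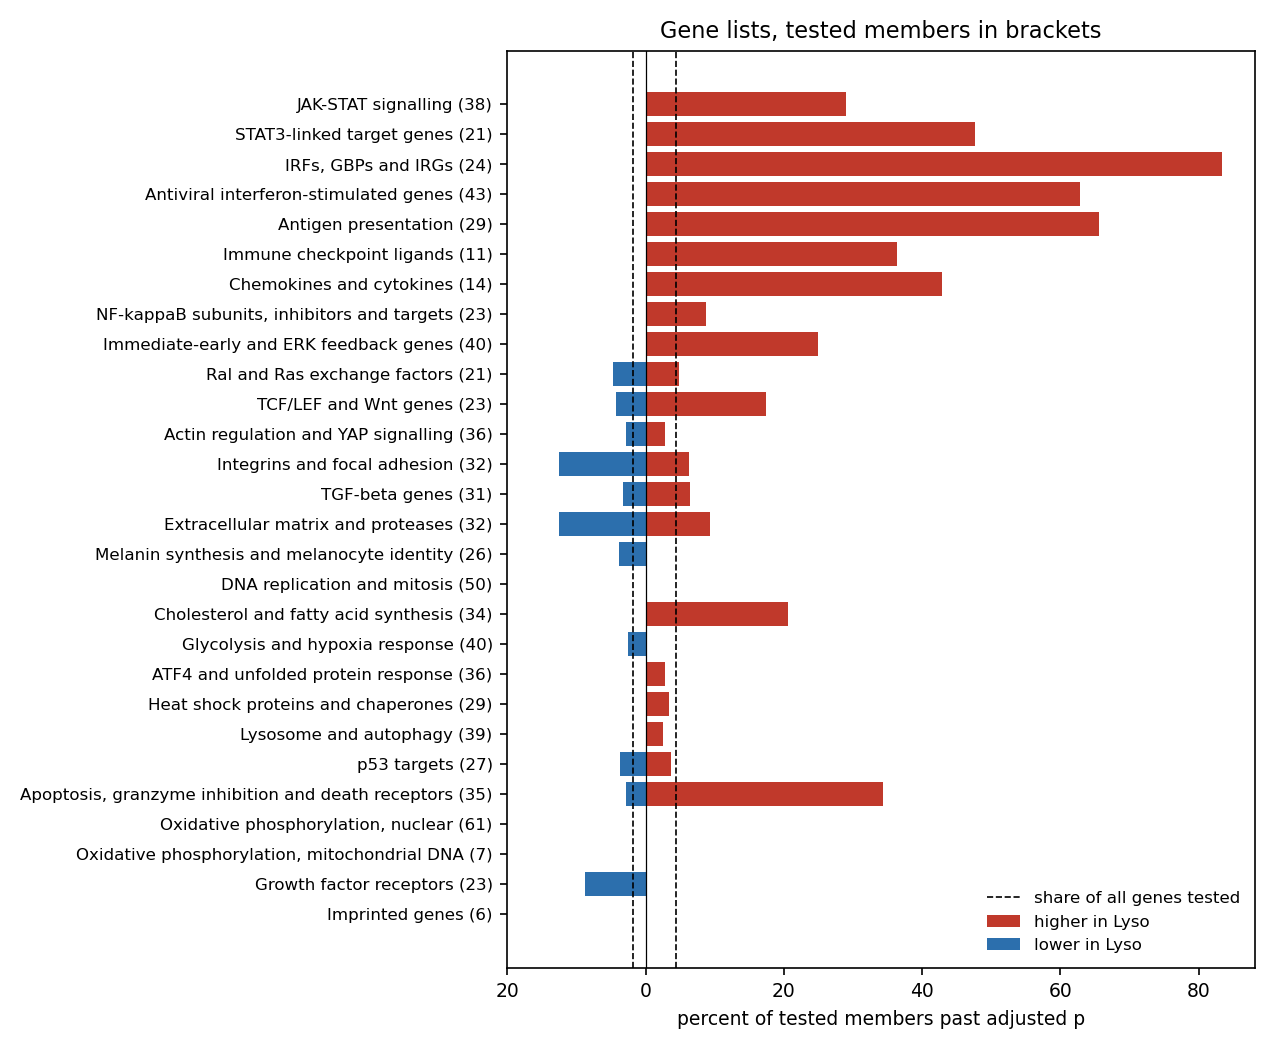
Share of the tested members of 28 gene lists that passed an adjusted p under 0.05, in percent, with genes higher in Lyso to the right (red) and lower to the left (blue) and the number tested in brackets. Dashed lines mark the shares over all genes tested, 4.46% and 1.87%. The interferon-related lists exceed 60%, and the lists of replication, oxidative phosphorylation and imprinted genes have no bar.

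Some genes of cholesterol and fatty acid synthesis rose, by smaller steps. Of 34 tested, 7 rose (20.6%) by 0.55 to 1.80, 0 fell and the median was 0.45. At an unadjusted p under 0.05 in edgeR 17 were higher and 3 lower, and DESeq2 called 13 higher and 2 lower, limma voom 11 higher. Mvd stood at 62.6, 57.9 and 60.0 CPM in Lyso against 27.1, 23.5 and 30.4 CPM, a rise of 1.16 (SE 0.12, adjusted p = 0.00197, edgeR). Lss, the lanosterol synthase, rose by 0.93 (SE 0.11, adjusted p = 0.00250, edgeR) and Fdps, the farnesyl diphosphate synthase, by 1.09 (SE 0.14, adjusted p = 0.00477, edgeR). WT 3 lay below Lyso for all 3. Hsd17b7 passed as well (1.52, adjusted p = 0.0331, edgeR), in 3 of the 6 fits that left out a library.

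Falling genes were fewer than rising ones. Prickle1, a component of planar cell polarity (chromosome 15, 93499114 to 93595891), stood at 28.7, 27.8 and 30.5 CPM in Lyso and at 178, 132 and 125 CPM in ITF1, ITM and Rel. It fell by 2.32 on the log2 scale (-2.32, SE 0.16, adjusted p = 0.000202, edgeR), and WT 3 (108 CPM) lay just below the relapsed lines. Gjc3, a connexin of glial cells (chromosome 5, 137953461 to 137963098), stood at 31.2, 33.4 and 30.9 CPM against 89.6, 103 and 105 CPM, a fall of 1.64 (-1.64, SE 0.11, adjusted p = 0.000199, edgeR). WT 3 lay between, at 54.2 CPM.
Mcam, a melanoma adhesion molecule also known as CD146 (chromosome 9, 44134469 to 44142727), stood at 52.9, 59.7 and 60.9 CPM in Lyso and at 134, 139 and 132 CPM in the relapsed lines. Its log2 fold change was -1.22 (SE 0.10, adjusted p = 0.000633, edgeR), and WT 3 held even more, at 227 CPM. Ndrg1, a gene of the hypoxia response, stood at 27.8, 27.3 and 26.7 CPM against 171, 95.1 and 112 CPM, a log2 fold change of -2.21 (SE 0.22, adjusted p = 0.00128, edgeR). It was the only one of 40 tested glycolysis and hypoxia genes to pass in edgeR, and the median of that list was -0.40. At an unadjusted p under 0.05 in edgeR 9 were lower and 2 higher, and DESeq2 called 4 lower and 2 higher, limma voom 2 and 2. WT 3 held 62.6 CPM of Ndrg1.
Plekhg1 fell from 18, 18.7 and 17 CPM to 5.60, 4.70 and 4.73 CPM (-1.84, SE 0.16, adjusted p = 0.000668, edgeR). Masp1, a protease of the complement system, fell from 10.6, 10.3 and 10.5 CPM to 3.64, 3.14 and 3.53 CPM (-1.60, SE 0.17, adjusted p = 0.00194, edgeR). WT placed these apart: for Masp1 the WT libraries held 31.0, 49.9 and 120 CPM, far above both groups. For Plekhg1 they held 3.95, 6.29 and 10.9 CPM, below each relapsed line, with WT 3 between the groups and the shallow WT 1 and WT 2 near Lyso. Synpo, an actin-binding protein, stood at 54.2, 72.1 and 147 CPM in the WT libraries, 76.9 to 109.7 CPM in the relapsed lines and 34.8 to 41.2 CPM in Lyso (-1.32, SE 0.15, adjusted p = 0.00258, edgeR).

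Most of the remaining top falls were close to 2-fold. Zfyve21 (-1.2, SE 0.15), Prkar2b, a regulatory subunit of protein kinase A (-1.08, SE 0.13), Eya1, a transcriptional coactivator (-1.08, SE 0.14), and Mef2c, a transcription factor of the neural crest and muscle (-1.10, SE 0.14), had adjusted p between 0.00315 and 0.0043 (edgeR). Eya1 differed from the other 3 in WT 3, whose 45.7 CPM fell within the Lyso libraries (44.5 to 50.1 CPM) and outside the relapsed lines (87.2 to 118 CPM). For Capn6, an unusual member of the calpain family, WT 3 lay below both groups: it stood at 3.92, 4.24 and 5.13 CPM in Lyso, 14.3, 14.9 and 24.7 CPM in the relapsed lines and 1.87 CPM in WT 3 (-2.01, SE 0.26, adjusted p = 0.00445, edgeR). Larger falls with a wider spread included Mbp, the myelin basic protein gene, named after its values were seen, which fell from 489, 108 and 178 CPM to 26.4, 27.4 and 28.6 CPM (-3.23, SE 0.52, adjusted p = 0.0111, edgeR), with 45.6 CPM in WT 3.

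**Figure D4:**
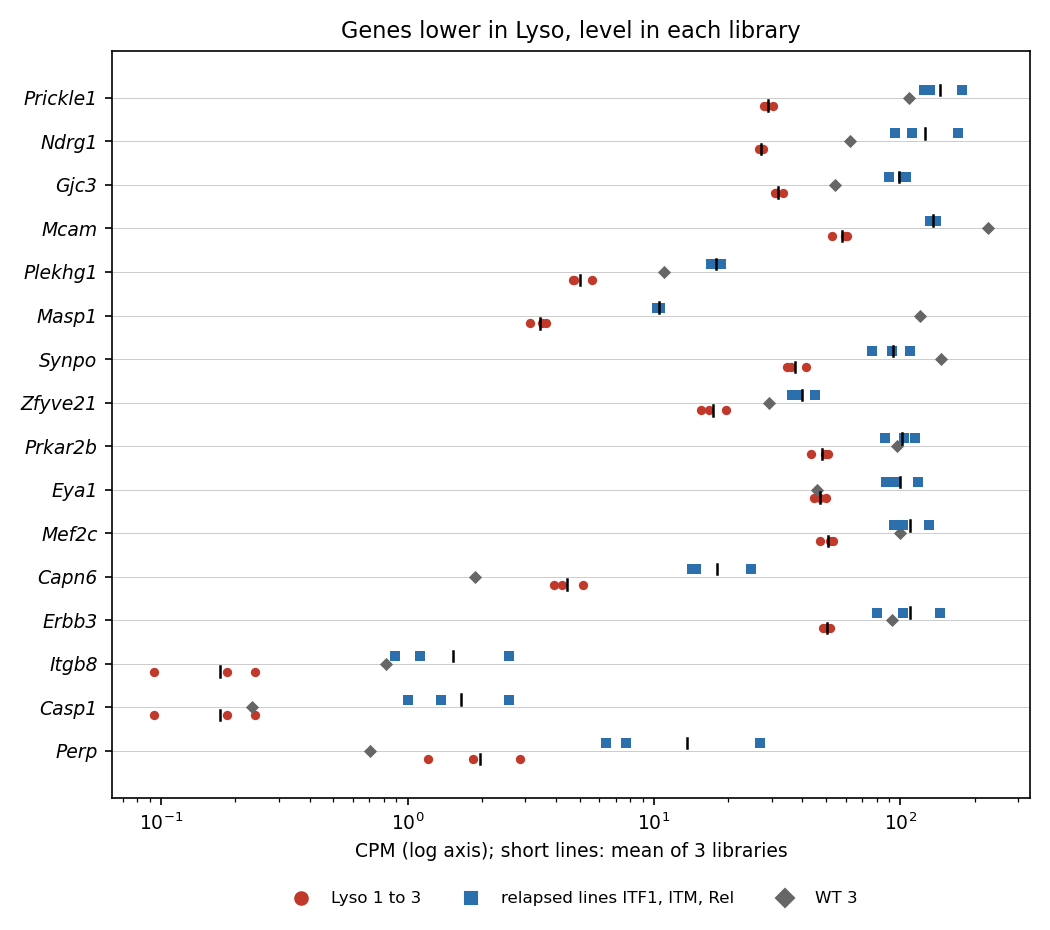
Level of 16 genes that fell, in CPM on a log axis, in Lyso 1 to 3 (red circles), ITF1, ITM and Rel (blue squares) and WT 3 (grey diamonds), with short lines at the means of 3 libraries. All Lyso libraries lie below all relapsed lines. WT 3 lies above both groups for Mcam, Masp1 and Synpo and at or near Lyso for Eya1, Capn6, Casp1 and Perp.

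Adhesion and matrix genes moved in both directions. Of 32 tested integrin and focal adhesion genes, 2 rose (6.25%) and 4 fell (12.5%), with a median of -0.16. Of 32 tested matrix and protease genes, 3 rose (9.38%) and 4 fell (12.5%), with a median of -0.43. Over all genes tested, 4.46% were higher and 1.87% lower. DESeq2 called 3 higher and 9 lower in each list, and limma voom called 4 and 7 in the first and 3 and 5 in the second. Tns1, the focal adhesion protein tensin 1, rose from 2.43, 2.43 and 3.11 CPM to 14.4, 13.7 and 12.1 CPM, by 2.33 (SE 0.19, adjusted p = 0.000585, edgeR), with 10.2 CPM in WT 3. Thbs1, a matrix glycoprotein, rose by 2.46 (SE 0.54, adjusted p = 0.039, edgeR), to between 73.3 and 80.9 CPM, while the relapsed lines ran from 4.10 to 27.3 CPM. The call was lost without ITM and without any one Lyso library, with adjusted p up to 0.153. Itgb8, an integrin that activates TGF-beta, was at or under 3 counts in each Lyso library and at 2.58, 0.888 and 1.13 CPM in the relapsed lines (-3.03, SE 0.63, adjusted p = 0.0314, edgeR), a call lost without any one Lyso library (largest adjusted p 0.152). Itgb5 was higher than in the relapsed lines by 1.35 and Itga4 fell by 0.79 on the log2 scale (-0.79), both with adjusted p over 0.05 in at least 3 of those 6 fits. The WT libraries held 61.52, 34.39 and 39.8 CPM of Itgb5, above each Lyso library (16.41 to 20.99 CPM). Itgb5 was thus not higher in Lyso than in WT. Cdh1, which encodes E-cadherin, was weak throughout, at 0.933, 0.830 and 0.721 CPM in Lyso and 1.75, 2.25 and 1.85 CPM in the relapsed lines. It passed narrowly (-1.24, SE 0.29, adjusted p = 0.0467, edgeR), in 1 of the 6 fits without a library, and not with DESeq2 (adjusted p = 0.103, over the alternatives 0.0295 to 0.212). Cdh2, Ctnnb1 and Itgb1, which encode N-cadherin, beta-catenin and integrin beta 1, did not pass, with log2 fold changes of -0.51 (SE 0.22), -0.15 (SE 0.16) and -0.54 (SE 0.16) and adjusted p of 0.216, 0.646 and 0.0942 (edgeR). For Itgb1 the groups did not overlap, at 508, 593 and 604 CPM against 942, 693 and 841 CPM, and DESeq2 called it lower (adjusted p = 0.0136, over the alternatives 0.0136 to 0.314).

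Of 31 tested TGF-beta genes, 2 rose and 1 fell, and DESeq2 called 4 higher and 2 lower. Smad7, the inhibitor of the pathway, rose by 1.05 and Eng, a co-receptor, by 0.74 (adjusted p = 0.0373 and 0.0325, edgeR), each in 2 of the 6 fits that left out a library. Of 36 tested genes of actin regulation and YAP signalling, Rnd3 rose by 2.0 and Ccn1 fell (-1.0), with adjusted p of 0.0168 and 0.0324 (edgeR), both lost without any one Lyso library, while DESeq2 called 1 higher and 6 lower in that list. Erbb3 and Fgfr1, of 23 tested growth factor receptors, fell, and DESeq2 called 3 lower and 1 higher. Erbb3, the neuregulin receptor, stood at 48.7, 52 and 50.2 CPM against 145, 102 and 80.6 CPM (-1.12, SE 0.20, adjusted p = 0.018, edgeR), and Fgfr1 at 0.653, 1.01 and 0.962 CPM against 4.56, 1.84 and 5.56 CPM (-2.16, SE 0.47, adjusted p = 0.0355, edgeR). Both calls were lost without any one Lyso library, and that of Fgfr1 also without ITF1 or Rel.

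Other groups differed little between Lyso and the relapsed lines. Of 26 tested pigment and melanocyte genes, 1 passed, Mlph, which links melanosomes to the motor of actin transport: it stood at 549.5, 526 and 497 CPM against 756, 955 and 1123 CPM (-0.85, SE 0.17, adjusted p = 0.0272, edgeR), a call lost without any one Lyso library. Dct, which encodes TRP2, stood at 8360, 8981 and 9245 CPM in Lyso inside the 6677 to 12180 CPM of the relapsed lines. Pmel, which encodes gp100, stood at 6362, 5834 and 5984 CPM, above 2091, 5068 and 5702 CPM in ITF1, ITM and Rel, yet without passing (0.50, SE 0.35, adjusted p = 0.445, edgeR). Of 50 tested replication and mitosis genes and 61 nuclear genes of oxidative phosphorylation, 0 passed in edgeR. At an unadjusted p under 0.05, 4 and 9 of them were higher and 1 and 0 lower, and DESeq2 called 1 higher in each list. The median log2 fold changes of these lists were 0.05 and 0.09, against -0.016 for all genes. Single genes passed in edgeR in the lists of heat shock (Bag3, 0.93) and ATF4 response (Cebpb), each below the background of 4.46%. Among 27 tested p53 targets, Btg2 rose by 1.31 and Perp fell (-2.79), 3.70% of the list each, and for Perp WT 3 (0.701 CPM) lay below Lyso. Btg2 did not pass without Lyso 2 or Lyso 3, nor Perp without any one Lyso library. Of 23 tested NF-kappaB genes, 2 rose (8.70%, against 4.46% of all genes), Nfkbiz by 1.24 and Tnfaip2 by 0.94 (adjusted p = 0.0109 and 0.047, edgeR), both lost without any one Lyso library. For Tnfaip2, WT 3 held 64.35 CPM, above each Lyso library (57.5 to 63.5 CPM), and WT 1 and WT 2 held 156 and 34.8 CPM. WT 3 held 4.44 CPM of Nfkbiz, below each relapsed line. Lamp1 and Cd63, proteins of lysosome and vesicle membranes, had log2 fold changes of -0.27 and -0.17 and adjusted p of 0.281 and 0.647 (edgeR). Of 6 tested imprinted genes 0 passed in edgeR, DESeq2 or limma voom, and 1 was higher at an unadjusted p under 0.05 in edgeR.

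Weakly expressed genes, those with a mean under 2 CPM over the 6 libraries, passed the filter in part because one group held enough counts, so their shares are set by that filter too. Of 1672 tested, 85 were higher (5.08%) and 16 lower (0.957%) past both thresholds, and with at least 10 counts required in every library 3 and 0 were left (edgeR). Their SEs were wider, at a median of 0.40 against 0.16. Of the 1174 tested genes with 3 counts or fewer in both WT 1 and WT 2, the shallow untreated libraries, 142 were among the 420 higher and 10 among the 102 lower genes. Without a Lyso library, between 28 and 38 of the weak genes were higher and 2 were lower, and without ITM 49 were lower.
Among weak genes that rose, Cxcl9, a chemokine that attracts T cells, stood at 2.80, 3.14 and 2.64 CPM in Lyso, with 1 count in all relapsed lines together, a ratio of 129 with a 95% counting interval of 22.6 to 5134 (adjusted p = 0.000815, edgeR). Serpina3f had no count in any relapsed line and 3.08, 2.67 and 2.40 CPM in Lyso, at least 40.7-fold higher (adjusted p = 0.00197, edgeR). Mpeg1, a pore-forming protein of phagocytes, had no count either and 1.96, 1.75 and 1.84 CPM in Lyso, at least 27.9-fold higher (adjusted p = 0.00285, edgeR). Muc1, a mucin, rose by 3.86 (SE 0.37, adjusted p = 0.00115, edgeR), from 0.228, 0.118 and 0.265 CPM to 3.54, 2.77 and 2.80 CPM. Il2rb, a receptor chain for IL-2, and Cd52, a surface protein of lymphocytes, rose too, Il2rb by 2.78 (SE 0.33) and Cd52 from 1 count over the relapsed lines to 1.28 to 1.77 CPM (adjusted p = 0.00277 each, edgeR).
Among weak genes that fell, Cfap70, a protein of cilia, had 1 count in all Lyso libraries together and 4.18, 1.36 and 3.71 CPM in the relapsed lines, a ratio of 101 with a 95% counting interval of 17.8 to 4019 (adjusted p = 0.00568, edgeR). WT 3, at 3.45 CPM, lay with the relapsed lines. Cfap100, also of cilia, stood at 0.839, 0.830 and 0.721 CPM against 3.80, 2.37 and 2.38 CPM (-1.82, SE 0.32, adjusted p = 0.0164, edgeR). Rcn3, a calcium-binding protein of the secretory pathway (-2.20, SE 0.37), Zfp114, a zinc finger protein (-2.15, SE 0.37), and Proser2 (-2.77, SE 0.50) had adjusted p of 0.0127, 0.0148 and 0.0175 (edgeR). Gpm6b, Olfm2 and Zswim5 were lower than in the relapsed lines by 1.76, 1.37 and 1.84 on the log2 scale (-1.76, -1.37 and -1.84), and in only 2, 1 and 1 of the 6 fits that left out a library. WT 3 held 0.526 CPM of Olfm2, below each Lyso library (0.738 to 1.21 CPM), and 0.701 CPM of Zswim5, within Lyso (0.653 to 1.04 CPM). Olfm2 and Zswim5 were thus not lower in Lyso than in WT 3. For Gpm6b, WT 3 held 3.68 CPM, above each relapsed line. Cfap70 was the only one of these 8 weak falling genes to pass in all 6 fits. Of the 109 genes named by rule that passed, 65 did so in all 6 fits, and 44 were lost in at least 1, mostly without a Lyso library.

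RNA of T cell genes was present in Lyso. Of 22 T cell markers, 9 could be tested and 7 were higher in Lyso, among them Gzmb, Cd8a, Cd8b1, Trbc2, Ptprc and Lck. Lck was also present without granules: WT 1, a shallow library, held 6.77 CPM, above each Lyso library (5.29 to 6.06 CPM). WT 2 and WT 3 held 1.26 and 1.34 CPM of Lck, and ITF1 and ITM 1.60 and 1.66 CPM. The summed level of all 22 was 28.7 to 35.3 CPM in Lyso and 6.22 to 14 CPM in the relapsed lines. Cd247 supplied most of it in ITM and Rel, and Cd247 and Lat in ITF1. Lat stood at 1.52 to 2.21 CPM in Lyso, below ITF1 (6.38 CPM), WT 2 (5.45 CPM) and WT 3 (5.38 CPM) and above ITM (0.296 CPM) and Rel (0.0662 CPM). Gzmb, the main cytotoxic granzyme, stood at 5.97, 6.64 and 5.05 CPM in Lyso and had no count in any relapsed line or WT library, at least 88.0-fold higher (adjusted p = 0.000725, edgeR). Cd8a stood at 2.05, 1.2 and 2.24 CPM with 1 count over the relapsed lines, a ratio of 83.6 with a 95% counting interval of 14.5 to 3353 (adjusted p = 0.00313, edgeR). Cd3d, Cd3e and Cd3g had between 0 and 7 counts in each Lyso library, and Prf1 had between 1 and 3. In bulk RNA, how many T cells or granules were present and how much RNA each held cannot be told apart.
Thy1, a T cell and fibroblast surface protein, stood at 4.01, 2.21 and 1.92 CPM in Lyso with 1 count over the relapsed lines. Xist, the RNA of the inactive X chromosome, stood at 2.24, 3.32 and 1.28 CPM in Lyso and at 0.118 to 0.152 CPM in the relapsed lines (4.0, SE 0.52, adjusted p = 0.00445, edgeR). The 4 Y-linked marker genes had no count in any Lyso library, while Gm47283, the one tested gene annotated on that chromosome and named after its values were seen, stood at 17.9, 14.8 and 17.7 CPM in Lyso against 7.75, 10.3 and 5.16 CPM. For comparison, Stat3, Irf1 and Tcf7 stood at 548, 713 and 115 CPM on average in Lyso. How far T cell RNA contributes to any of the rises, Tcf7, Il2rb and Cd52 among them, was not tested. Of 15 myeloid markers, 4 were tested and 0 passed in edgeR, 1 being higher at an unadjusted p under 0.05 (summed level 33.7 to 36.5 CPM in Lyso and 14.3 to 47.2 CPM in the relapsed lines), and of 10 endothelial markers 2 were tested and 0 passed, with 1 higher at an unadjusted p under 0.05 (19.7 to 20.7 CPM and 9.27 to 33.4 CPM). Of 10 fibroblast markers, Thy1 alone passed (15 to 17.8 CPM and 19.7 to 30.9 CPM), and keratinocyte markers summed to at most 0.228 CPM in any of the 6 libraries.

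**Figure D5:**
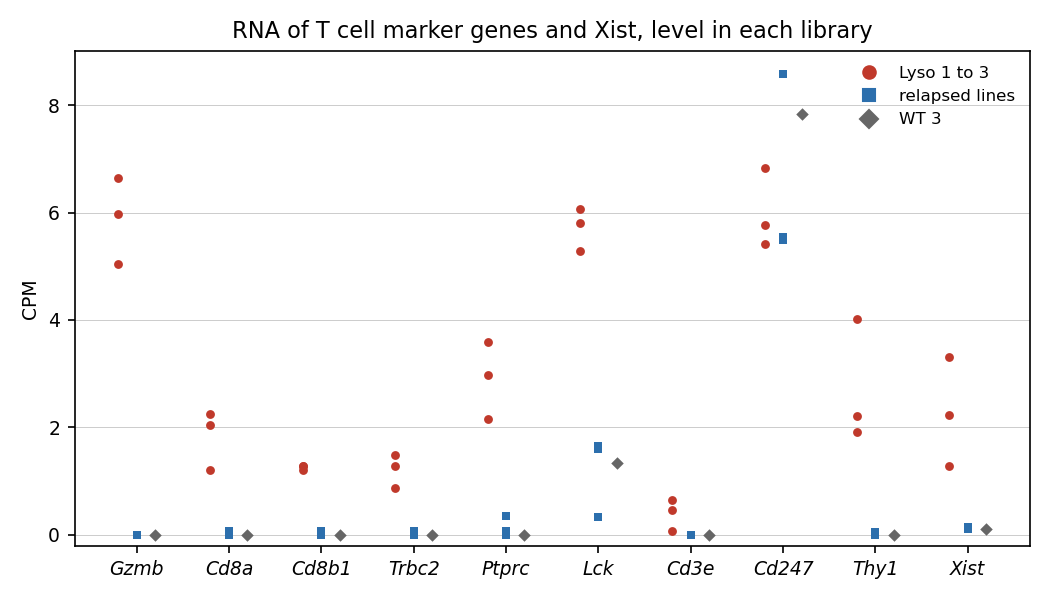
Level in CPM of 9 genes of T cells and of Xist in Lyso 1 to 3 (red circles), the relapsed lines (blue squares) and WT 3 (grey diamonds). Gzmb, Cd8a, Cd8b1, Trbc2 and Thy1 are above 0.8 CPM in each Lyso library and below 0.1 CPM elsewhere, while Cd247 is at a like level in all libraries.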

How the data were processed

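RNA libraries were made with an mRNA protocol. The authors trimmed adaptors with fastp 0.19.6, aligned the reads to GRCm38 with STAR 2.7.1a and deposited raw counts per gene, without normalization. The strand setting and annotation release are not given in the sources used here. Of the reads of the 6 libraries, 36.17% to 39.07% were assigned to genes and 43.67% to 44.61% to no feature, and the 4 rows of uncounted reads were dropped. Of 54232 genes, 54165 matched GENCODE M21.

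Genes kept by filterByExpr (14003) were tested with edgeR 4.0.16 in R 4.3.3 (TMM, glmQLFit, glmQLFTest) on the 6 libraries alone. Standard errors were obtained by dividing each log2 fold change by the root of its F statistic. The paper used DESeq2, without naming the samples fitted, and DESeq2 1.42.0 was an alternative here. So were limma 3.58.1 (voom), other scalings and filters, glmTreat, all 12 libraries in the fit, and each library left out. CPM of WT are on the same TMM scale. The members, gene lists and rules were chosen with earlier results of these data known, as the whole comparison was. Named genes are the 12 smallest p per direction among protein-coding genes past both thresholds, up to 4 per list and direction, 8 weak genes per direction and 8 weak falling ones above 3 counts in every library, the 6 of widest range per group, markers above 3 counts in 1 group only, and genes that the paper names. Not all are printed, and some items are not reported here.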

Additional observations from a re-analysis of the deposited data

How the results depend on the processing

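Each of the 420 higher and 102 lower genes kept its sign in every setting that tested it. With DESeq2, 410 and 99 of them passed both thresholds, and 562 genes were lower at the adjusted p alone and 187 past both thresholds. Scaling by library size alone moved the median log2 fold change of all genes to -0.081 and gave 395 lower genes. All 12 libraries in the fit gave 457 lower genes. No filter on low counts gave 1082 higher and 771 lower genes, 730 and 318 past both thresholds, 284 and 78 of them weak. A minimum of 10 counts in every library left 274 higher genes, with 3 weak higher and 0 weak lower in edgeR, since it removes genes near 0 in 1 group. glmTreat against a log2 fold change of 1 called 162 higher and 9 lower genes, 33 and 2 of them weak. The RLE size factors and voom moved no count past 1.5 times.

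With 1 library left out, the number of higher genes ran from 249 (without Lyso 1) to 1125 (without ITM) and of lower genes from 39 to 1015. Past both thresholds the ranges were 220 to 520 and 27 to 306, and for weak genes 28 to 115 and 2 to 49. Of the 420 and 102 genes, between 217 and 393 and between 25 and 95 still passed both thresholds. The fits without a Lyso library lost the most, and the cause was not tested.

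Some genes that did not pass changed sign. With 1 library left out, Mapk3 ran from -0.04 (without ITM) to 0.32, B2m from -0.05 (without ITM) to 1.08, H2-D1 from -0.61 to 0.30 (without Rel) and Dct from -0.20 to 0.26 (without Rel) with 0.02 without Lyso 1. Kcnj13 ran from -2.02 to 2.46 and Mgll from -1.53 to 2.17 (both without Rel), and Slc16a3 from -2.38 to 1.10 (without ITF1). With voom, Dct was 0.03, Kcnj13 1.32 and Mgll 0.84.

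No paired analysis was possible because the labels of the relapsed lines carry no replicate numbers that match those of Lyso. Depth limits the weak genes: 3 counts in a library stand for 0.178 to 0.28 CPM.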

Other observations

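The relapsed lines differed from each other in ways that no comparison of groups shows. Among genes averaging 10 CPM or more, 841 of 9613 (8.75%) had a range over 1 on the log2(CPM + 1) scale among ITF1, ITM and Rel, and 19 of 9671 genes (0.197%) had one among the Lyso libraries. Kcnj13, a potassium channel of pigmented cells, stood at 0.152 CPM in ITF1, 3.31 CPM in ITM and 78.7 CPM in Rel. Mgll, the monoacylglycerol lipase, stood at 9.04, 37.1 and 568 CPM in the same order. Rel was thus the highest line for both, and Lyso held 9.40 to 11.2 CPM of Kcnj13 and 99.2 to 108 CPM of Mgll.

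ITF1 was the highest line for the other genes of widest range. Slc16a3, a lactate transporter, stood at 235 CPM in ITF1 against 4.97 CPM in ITM and 17.7 CPM in Rel, and Bnip3, a mitophagy receptor induced in hypoxia, at 232 CPM against 9.71 and 34.3 CPM. Xdh, the xanthine dehydrogenase, stood at 34.0 CPM against 0.237 and 8.07 CPM, and Serpinb9b, of the granzyme-inhibiting serpin family, at 77.7 CPM against 1.84 and 4.70 CPM. These genes were picked for their range, and the differences between the lines were not tested. Between the groups Slc16a3, Bnip3, Xdh and Serpinb9b did not pass (adjusted p = 0.386, 0.168, 0.319 and 0.145, edgeR). With no filter on low counts they passed as lower in Lyso. Without ITM, Bnip3, Xdh and Serpinb9b did too (adjusted p = 0.0283, 0.0262 and 0.0383, edgeR).

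Within Lyso the widest ranges belonged to processed pseudogenes and short genes that were high in Lyso 1. Gm10073 stood at 90.1 CPM in Lyso 1 and at 19.4 and 22.8 CPM in Lyso 2 and Lyso 3, and Ndufb4, a subunit of complex I, at 30.9 against 12.5 and 13.5 CPM. Lyso 1 was also the highest of the 6 libraries for mt-Cytb, at 24400 CPM against 16170 and 16540 CPM in the other Lyso libraries. Of 7 tested genes of the mitochondrial DNA, 0 passed in edgeR or limma voom, 5 were higher in Lyso at an unadjusted p under 0.05 in edgeR, and DESeq2 called 5 higher.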
